A study of Mus musculus with 6 samples.

Results

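The enzymes that remove superoxide and peroxides were followed in a virus-transformed mouse macrophage cell line, RAW264.7. The 10 genes were Sod1, Sod2, Prdx1, Prdx2, Prdx5, Prdx6, Cat, Gpx1, Gpx4 and Gsr, found as the probes whose gene name on the array is one of these symbols. They held 16 of the 55681 probes for genes and transcripts, and 15 of the 16 were well above background on every array. The AEPS group (3 samples) was treated for 4 h with a polysaccharide from Actinidia eriantha roots at 50 µg/ml, and the control group (3 samples) was kept in DMEM medium for 4 h. All 6 samples came from this 1 cell line, and the labels give no genetic change in either group. Nothing in the labels says that the samples were separate cultures, so p-values measure only the spread between these samples.

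Superoxide dismutases turn superoxide into hydrogen peroxide and oxygen: Sod1 encodes the copper and zinc enzyme of the cytosol, and Sod2 the manganese enzyme of the mitochondrial matrix. Catalase in peroxisomes, the glutathione peroxidases and the peroxiredoxins then reduce hydrogen peroxide, and Gpx4 also reduces lipid peroxides in membranes. Glutathione reductase (Gsr) and the thioredoxin system return the used thiols to their reduced form with NADPH. Macrophages make superoxide with the phagocyte oxidase and nitric oxide with inducible nitric oxide synthase, and these enzymes limit the damage to the cell itself.

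Total RNA was copied into Cy3-labelled RNA and hybridised to 1-colour Agilent arrays. In both groups the scanner file of replicate 2 repeated that of replicate 1, so the pair entered as 1 array, which left 2 distinct arrays per group on 2 slides, each slide holding 1 array of each group. The file given for replicate 3 matched the replicate 2 column of the authors' deposited value table in both groups, and no scanner file corresponded to the table columns of replicate 3. Both measures of the experiment are therefore given side by side, the table with 3 columns per group and the scanner arrays with 2 per group. The number of arrays limits the precision. On the AEPS arrays 55.4% and 56.7% of spots were well above background, against 55.4% and 58.7% on the control arrays, and no spot was saturated. All 9 macrophage marker genes examined (Cd68, Csf1r, Adgre1, Itgam, Lyz2, Spi1, Cd14, Fcgr1 and Tyrobp) were well above background on every array, with a summed level of 1330 to 1504 on AEPS arrays and 1590 to 1896 on control arrays in multiples of the array's 75th percentile. Of the markers of other cells, 3 of 7 T cell genes (Cd3e, Lck and Cd4), 2 of 5 B cell genes (Cd79a and Cd79b), 1 of 5 fibroblast genes (Col1a2) and 1 of 5 epithelial genes (Krt14) were above background on every array. The T cell list summed to 19.1 to 25.4 on AEPS arrays and 29.1 to 34.4 on control arrays, and no other list of these cells summed above 1.23 on AEPS arrays or 0.91 on control arrays. On the scanner arrays Cd79b rose by 2.59 (limma adjusted p = 0.0126) and Fcgr1 fell by 1.49 (adjusted p = 0.0343), and no other gene of these marker lists passed without a block. With the slide block Csf1r (-0.60, adjusted p = 0.0371), Tyrobp (-0.58, adjusted p = 0.0377), Cd4 (-0.55, adjusted p = 0.0478), Cd8a (adjusted p = 0.0336) and Col3a1 (adjusted p = 0.0370) were also lower, Cd8a being above background on 1 of 2 AEPS arrays and Col3a1 on 0 of 2. Of the macrophage markers, 3 were higher in the table (Adgre1, Spi1 and Cd14) and 3 lower (Csf1r, Fcgr1 and Tyrobp), with Lck and Cd8a lower and Cd79b higher among the others. The part of these transcripts in the results was not tested.

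Sod2 and Gpx4 moved furthest among the 10 enzymes, and in opposite directions. In the authors' value table Sod2 rose and Gpx4, Prdx2, Prdx5 and Gsr fell with AEPS, while Sod1, Prdx1, Prdx6, Cat and Gpx1 did not pass limma's adjusted p of 0.05. These 5 of 10 enzymes stood against 33.4% of the 25919 tested features called in that fit, 17.1% higher and 16.4% lower. On the scanner arrays none of the 10 passed, and the lowest adjusted p was 0.0635, where 7.12% of all features were called, 4.17% higher and 2.94% lower. An unadjusted p below 0.05 was found there for 3 of the 10 (Sod2, Gpx4 and Prdx5) and for 8457 of the 25919 features. Samples of the same number deviated together, and with the slide as a replicate block 4 of 10 passed on the scanner arrays, Sod2 higher and Prdx5, Gpx1 and Gpx4 lower, against 29.8% of all features (13% higher, 16.8% lower). In the table fit with the replicate block, 7 of 10 passed, with Prdx1 joining Sod2 on the higher side and Gpx1 joining the lower side, against 49.8% of all features (23.5% higher, 26.3% lower). With cyclic loess normalization and the slide block 2 of 10 passed, Sod2 higher and Gpx4 lower, against 29.9% of all features. Nothing is read from these counts about the enzymes as a set. In RNA of whole samples, less RNA per cell and fewer cells that express a gene cannot be told apart.

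**Figure D1:**
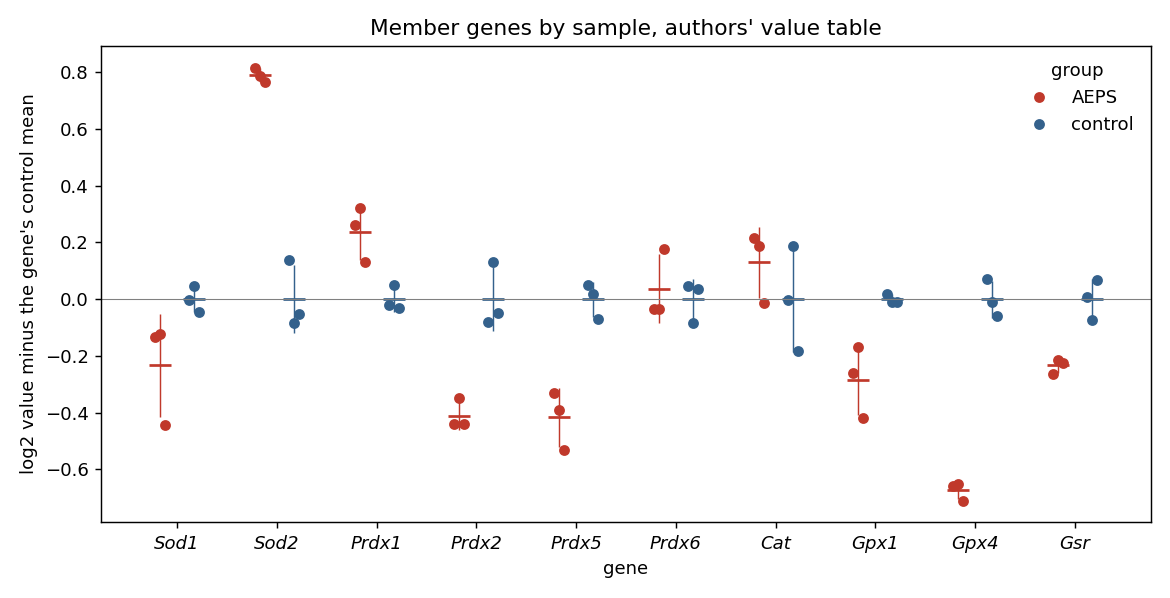
Values of the 10 enzymes in the authors' value table, each as log2 value minus the mean of that gene's control columns (vertical axis), for the 3 AEPS columns (red, left) and the 3 control columns (blue, right) of each gene. Points are samples, horizontal bars means and vertical bars SDs. Sod2 sits highest with a mean difference of 0.79 and Gpx4 lowest with -0.67, and only Prdx6 and Cat have overlapping groups.

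Groups that do not overlap were common in these data. In the table every AEPS value lay above every control value for 2 enzymes (Sod2 and Prdx1) and below for 6 (Sod1, Prdx2, Prdx5, Gpx1, Gpx4 and Gsr), where 48.1% of all features showed no overlap, 23.4% higher and 24.7% lower. On the scanner arrays 1 enzyme was higher without overlap (Sod2) and 7 were lower, against 63.2% of all features (25.2% higher, 38% lower). The median log2 change of the 10 enzymes was -0.23 in the table beside -0.06 for all features, and -0.31 beside -0.19 on the scanner arrays. All 10 enzymes kept 1 sign on both slides, and 8 of 10 did so in all 3 numbered pairs of the table, the exceptions being Prdx6 and Cat. A feature without overlap keeps 1 sign in every pair. At least 63.2% of all features therefore did so on the slides and at least 48.1% in the table, and nothing is read from these counts.

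Of the 2 superoxide dismutases, Sod2 rose in the table and Sod1 passed in none of the fits run. Mitochondrial Sod2 had table values of 16.51, 16.48 and 16.46 in AEPS samples, against 15.83, 15.61 and 15.64 in control samples, all on a log2 scale. Every AEPS sample lay above every control sample. Sod2 rose by 0.79 ± 0.08 (SE) in the table, or 1.73-fold (limma adjusted p = 0.00194), and 15.3% of all features changed more. Scanner values of Sod2 were 8.03 and 8.16 on AEPS arrays and 7.40 and 7.41 on control arrays, as log2 signal relative to the array's 75th percentile. That is a log2 difference of 0.69 ± 0.14 (adjusted p = 0.0639), and with the slide as a block Sod2 rose by the same 0.69 with an SE of 0.07 (adjusted p = 0.0370).

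Cytosolic Sod1 had table values of 17.19, 17.20 and 16.88 in AEPS samples and 17.32, 17.37 and 17.28 in control samples. The third AEPS sample was the lowest of the 6, and the groups did not overlap. The log2 difference of -0.23 ± 0.11 did not pass (adjusted p = 0.161). Scanner values were 8.67 and 8.86 with AEPS and 8.99 and 9.31 in control, also without overlap, and the difference was -0.39 ± 0.18 (adjusted p = 0.232, and adjusted p = 0.0629 with the slide block). Taking Sod2 minus Sod1 within each sample removes what a sample shares between both probes. This difference averaged -0.61 ± 0.16 in AEPS samples and -1.63 ± 0.14 in control samples (SD, n = 3 each), a shift of 1.02 in the same direction in every pairing of an AEPS with a control sample. The exact permutation test gave a two-sided p of 0.1, the smallest that 3 against 3 allows. Its level depends on the 2 probes and has no meaning of its own, and only the shift between groups is read. The scanner shift was 1.08 (exact permutation p = 0.333, the smallest that 2 against 2 allows).

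The probes that carry these measurements are 60 bases long, and the longest run shared between those of Sod1 and Sod2 is 5 bases, as is that between Gpx1 and Gpx4. Among all probes of Prdx1, Prdx2 and Prdx5 the longest run shared between genes was 7 bases. Probes were compared with each other and not with the other gene's transcript, so binding to the other gene's RNA was not tested. The first 30 bases are shown for the Sod2 and Sod1 probes, which start at bases 912 and 587 of their transcripts per the scanner annotation, because they measure the 2 dismutases set against each other.
Sod2 probe: ggctggtttatagtagtgtagagcattgca
Sod1 probe: cctgtgtggtctgagtctcagactcatctg

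The peroxiredoxins did not move as one. They are thiol peroxidases that differ in where they work and in which thiol partner restores them. Prdx1, of the cytosol and nucleus, had table values of 16.21, 16.27 and 16.08 in AEPS samples and 15.93, 16.00 and 15.92 in control samples. The groups did not overlap, yet the log2 difference of 0.24 ± 0.08 missed the threshold (adjusted p = 0.0687), and Prdx1 rose only in the fit with the replicate block (adjusted p = 0.0328), where leaving a sample out was not tried. Its scanner values overlapped, at 7.74 and 7.96 with AEPS and 7.52 and 7.81 in control. A second Prdx1 probe further along the transcript read a log2 difference of 0.36 ± 0.07 in the table and 0.46 ± 0.13 on the scanner arrays. With every probe as its own feature that second probe passed in the table (adjusted p = 0.0163) and on the scanner arrays passed only with the slide block (adjusted p = 0.104 without it and 0.0401 with it).

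Prdx2, a cytosolic enzyme abundant in red cells, had table values of 15.40, 15.49 and 15.40 in AEPS samples and 15.76, 15.97 and 15.79 in control samples. All AEPS samples were lower. Prdx2 fell by 0.41 on the log2 scale in the table (SE 0.08, adjusted p = 0.0163), and the call was lost without AEPS replicate 1 (adjusted p = 0.0513) or AEPS replicate 3 (adjusted p = 0.0614). On the scanner arrays, with 6.92 and 7.17 for AEPS and 7.32 and 7.78 for control, the log2 difference was -0.50 ± 0.23 (adjusted p = 0.216, and adjusted p = 0.0568 with the slide block). Both control arrays lay above both AEPS arrays, and the difference was -0.40 on the first slide and -0.60 on the second.

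Prdx5, found in mitochondria, peroxisomes and cytosol, had table values of 13.90, 13.84 and 13.70 in AEPS samples and 14.28, 14.25 and 14.16 in control samples, with no overlap. Prdx5 fell by 0.42 on the log2 scale in the table (SE 0.08, adjusted p = 0.0145), with the call lost without control replicate 2 (adjusted p = 0.0582) or AEPS replicate 2 (adjusted p = 0.0518). The scanner arrays, with 5.47 and 5.55 for AEPS and 5.89 and 6.0 for control, gave -0.44 ± 0.14 (adjusted p = 0.125), and Prdx5 fell there with the slide block (adjusted p = 0.0460). The falls of Prdx2 and Prdx5 are relative to the 75th percentile or to the table's normalization, and the values turned to 0.10 and 0.17 when the scanner arrays were scaled to the spike-in spots.

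Prdx6, which uses glutathione rather than thioredoxin as its thiol partner and also has phospholipase activity, gave no call in any of the 22 alternative settings. Its brightest probe had table values of 15.18, 15.18 and 15.39 in AEPS samples and 15.26, 15.13 and 15.25 in control samples. The groups overlapped, and the log2 difference was 0.04 in the table, with a 95% interval of -0.19 to 0.26, and -0.11 on the scanner arrays, with an interval of -0.50 to 0.28. The other tested Prdx6 probes differed by 0.03 and -0.07 in the table and by -0.02 and -0.14 on the scanner arrays. A further Prdx6 probe was above background on 1 of 2 AEPS arrays and on 0 of 2 control arrays, and was not tested.

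Catalase, the peroxisomal enzyme that splits hydrogen peroxide without a thiol partner, did not pass in any of the 22 alternatives. Its brightest probe had table values of 9.63, 9.60 and 9.40 in AEPS samples and 9.41, 9.60 and 9.23 in control samples, and the groups overlapped. The log2 difference was 0.13 in the table (95% interval -0.18 to 0.44) and 0.14 on the scanner arrays (-0.31 to 0.59). The other Cat probe, nearer the start of the transcript, read 6.78, 7.42 and 7.15 in AEPS samples and 6.27, 6.69 and 6.55 in control samples, which do not overlap. Its log2 difference of 0.61 ± 0.20 missed the threshold (adjusted p = 0.0628), and it passed with the replicate block in the table (adjusted p = 0.00698), with every probe as its own feature. The 2 Cat probes thus gave differences of unequal size with the same sign.

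**Figure D2:**
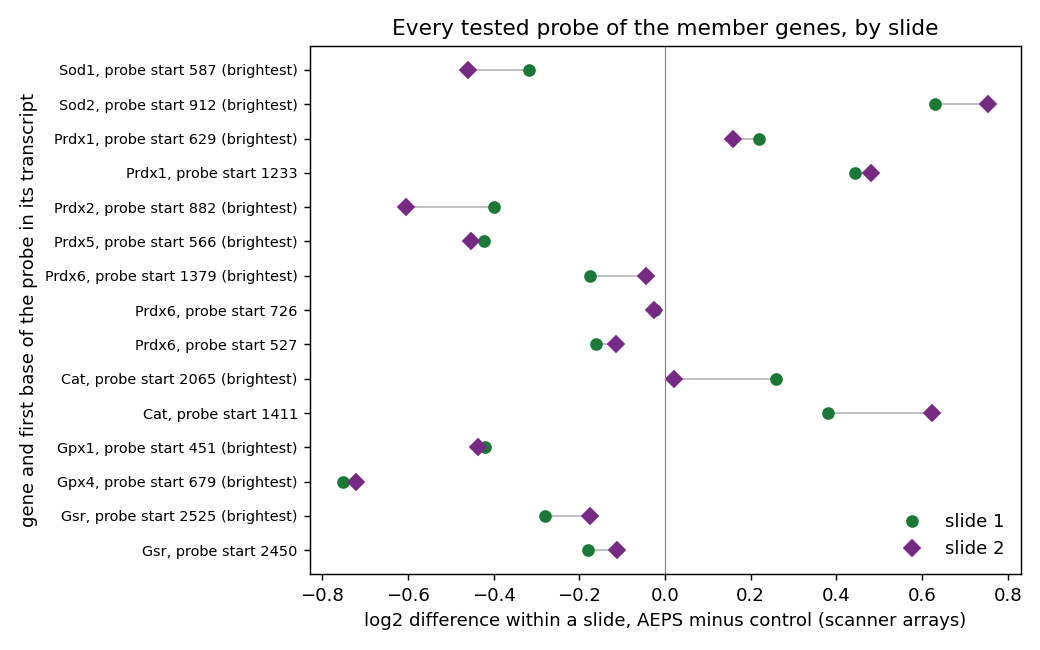
Log2 difference of AEPS minus control within slide 1 (green circles) and slide 2 (purple diamonds) of the scanner arrays, for the 15 tested probes, labelled by gene and by the probe's first base in its transcript. Each probe keeps its sign on both slides, and the Cat probes differ most between slides and from each other, with 0.26 and 0.02 for the brightest and 0.38 and 0.62 for the other.

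The glutathione peroxidases and glutathione reductase had lower values with AEPS in the table and on the percentile-scaled scanner arrays, and Gpx1 and Gsr turned positive with spike-in scaling. Gpx4, a selenoprotein that reduces lipid peroxides and guards cells from ferroptosis, had table values of 14.79, 14.80 and 14.74 in AEPS samples and 15.52, 15.44 and 15.39 in control samples. All AEPS samples lay below all control samples, with a gap larger than the spread within either group. Gpx4 fell by 0.67 on the log2 scale in the table (SE 0.07, adjusted p = 0.00172), so that control samples were 1.59-fold above AEPS samples, and 20.2% of all features changed more. The scanner arrays gave Gpx4 6.36 and 6.51 with AEPS and 7.11 and 7.23 in control, a log2 difference of -0.74 ± 0.14 (adjusted p = 0.0635), and it fell with the slide block (adjusted p = 0.0345). Its call in the table was kept without any 1 sample, with adjusted p from 0.00715 to 0.0128, and Sod2's from 0.00368 to 0.0139.

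Gpx1, the abundant cytosolic and mitochondrial selenoprotein, had table values of 16.88, 16.97 and 16.72 in AEPS samples and 17.16, 17.13 and 17.13 in control samples. The groups did not overlap, but the log2 difference of -0.28 ± 0.09 was just outside the threshold (adjusted p = 0.0533). Scanner values were 8.41 and 8.63 with AEPS and 8.83 and 9.07 in control, again without overlap. Gpx1 fell with the replicate block in the table (adjusted p = 0.0433) and with the slide block on the scanner arrays (-0.43, adjusted p = 0.0465), and its value turned to 0.18 with spike-in scaling. Gsr, which regenerates glutathione, had table values of 13.78, 13.83 and 13.82 in AEPS samples and 14.05, 13.97 and 14.11 in control samples, without overlap. Gsr fell by 0.23 on the log2 scale in the table (SE 0.07, adjusted p = 0.0498), a call lost without any 1 of the 6 samples (adjusted p from 0.0778 to 0.126) and turned to 0.38 in value with spike-in scaling of the scanner arrays. Scanner values of Gsr were 5.34 and 5.54 with AEPS and 5.62 and 5.72 in control. A second Gsr probe read -0.15 in the table and -0.15 on the scanner arrays and did not pass in either.

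The probes of Gpx4, Gpx1 and Prdx5 are shown whole, because they measured 3 of the enzymes that were lower with the slide block. They start at bases 679, 451 and 566 of their transcripts per the scanner annotation.
Gpx4 probe: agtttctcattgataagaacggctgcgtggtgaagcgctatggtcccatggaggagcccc
Gpx1 probe: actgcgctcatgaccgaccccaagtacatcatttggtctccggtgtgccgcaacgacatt
Prdx5 probe: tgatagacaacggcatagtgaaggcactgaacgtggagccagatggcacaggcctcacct

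**Figure D3:**
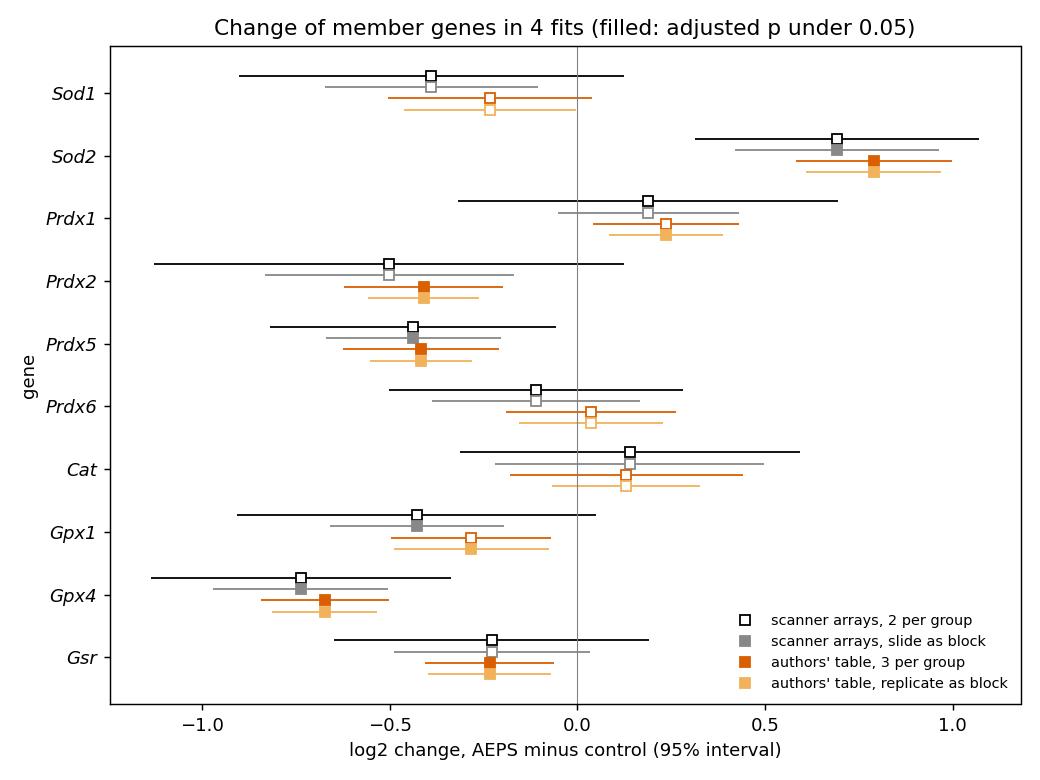
Log2 change of each enzyme, AEPS minus control, with its 95% interval, from limma on the scanner arrays (2 per group) with no block and with the slide as block, and on the authors' table (3 per group) with no block and with the replicate as block. Filled squares passed an adjusted p of 0.05. Sod2 lies between 0.69 and 0.79 and Gpx4 between -0.74 and -0.67, and no square is filled for Sod1, Prdx6 or Cat, nor in the scanner fit with no block.

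The sign of 6 of the 10 enzymes depended on how the arrays were put on a common scale. Sod2 stayed positive in 22 of 22 alternatives, with log2 changes of 0.63 to 1.30, and Gpx4 stayed negative in 22 of 22, with -0.81 to -0.13. Sod2 and Gpx4 each passed in 13 of 22, which were 5 of 14 on the scanner arrays and 8 of 8 on the table. Scaling to the spike-in spots moved the median change of all features to 0.42, against -0.19 with the 75th percentile. With that scaling Sod2 passed, Gpx4 stood at -0.13 (adjusted p = 0.741), and Sod1, Prdx2, Prdx5, Prdx6, Gpx1 and Gsr turned positive, at 0.10 to 0.49.

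The median change also varied with brightness on the scanner arrays. It was -0.33 among the 806 features at log2 8 or more above the 75th percentile, where Sod1 (-0.39) and Gpx1 (-0.43) lie, and -0.12 among the 1137 features between 6 and 8, where Sod2, Prdx1, Prdx2, Prdx6 and Gpx4 lie. In the table the medians of the same features were -0.02 and -0.04. Sod1 and Gpx1 thus lay close to the median of features as bright as they were on the scanner arrays, but not in the table, where they stood at -0.23 and -0.28. Gpx4 and Sod2 lay further from the median of theirs in both. Cyclic loess normalization, added after this trend was seen, left medians of -0.13 at 8 or more and 0.006 between 6 and 8. With it Sod2 rose by 0.84 (adjusted p = 0.0464), Gpx4 fell by 0.62 (adjusted p = 0.0486) and no other enzyme passed, against 11.3% of all features.

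**Figure D4:**
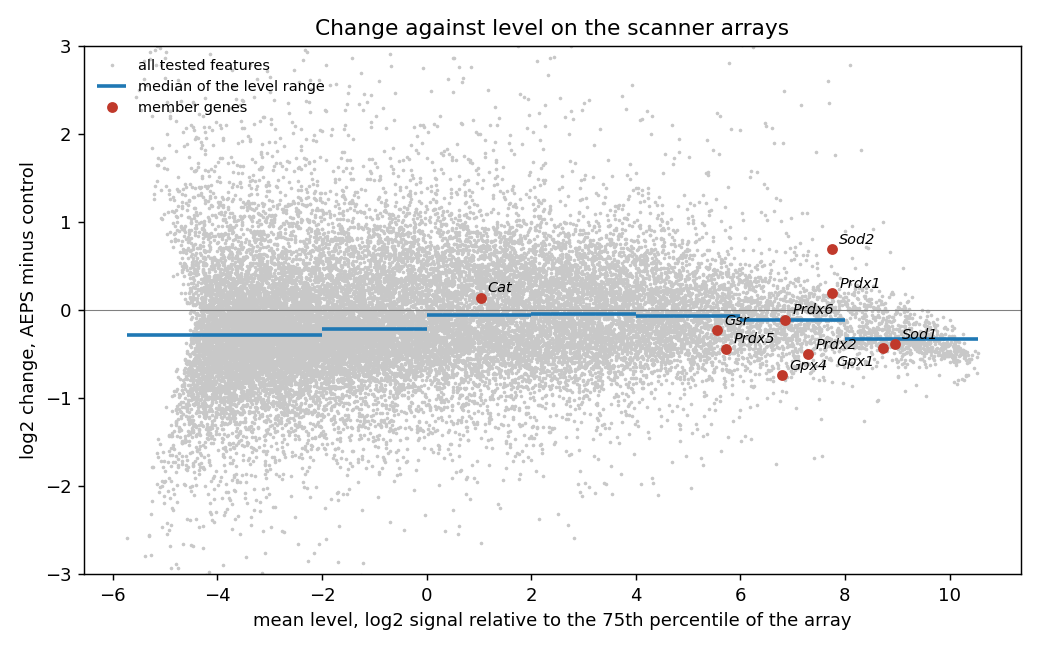
Log2 change, AEPS minus control, against the mean log2 signal relative to the array's 75th percentile on the scanner arrays, for all 25919 tested features (grey; 126 lie beyond the plotted range) with the median of each level range (blue) and the 10 enzymes (red). Sod2 at 0.69 and Gpx4 at -0.74 lie away from the median of their range, -0.12, and Sod1 and Gpx1 lie near the median of theirs, -0.33.

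Promoters of 8 of the 10 genes were found in the RefSeq promoter table of mouse build GRCm38.p6, and those of Prdx6 and Gsr were not. Short motifs were searched on both strands in the 250 bases before each start. The GC box GGGCGG was present for 6 of the 8 genes (Sod1, Sod2, Prdx1, Prdx5, Cat and Gpx4). That was 8 of their 11 promoter entries, against 32.7% of all 32851 promoters. Gpx4 has several of the 11 entries, and some of these overlap, so a box can be counted more than once. The antioxidant response core TGACNNNGC occurred for Prdx1 and Sod1 and in 10.2% of all promoters. The core shared by AP-1 and small Maf sites, TGANTCA, occurred for Prdx1 alone among the 8 genes and in 6.75% of all promoters, and 1 of its 2 matches overlaps the antioxidant response core there. The string GGNNTTTCC, a narrow spelling of a kB motif core (4.93% of promoters), and the forkhead motif GTAAACA (3.17%) were in none of the 11 entries. Other spellings of the kB motif were not searched, so no lack of kB motifs is read from this. A match is a description of the letters, not a site.

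The 250 bases before the start are shown for both dismutases, which carry 4 GC boxes each, and for Prdx1, the enzyme with the AP-1 or small Maf core. They are chr17:13007589-13007838 for Sod2, chr16:90220512-90220761 for Sod1 and chr4:116685349-116685598 for Prdx1, all on the plus strand. Capitals mark the GC boxes on either strand and, for Prdx1, also TGANTCA; neighbouring boxes overlap in Sod1.
Sod2 promoter: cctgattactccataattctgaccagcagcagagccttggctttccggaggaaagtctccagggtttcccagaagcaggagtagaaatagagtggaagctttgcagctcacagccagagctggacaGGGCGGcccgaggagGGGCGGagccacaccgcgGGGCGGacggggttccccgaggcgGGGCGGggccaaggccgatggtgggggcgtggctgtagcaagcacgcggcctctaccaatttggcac
Sod1 promoter: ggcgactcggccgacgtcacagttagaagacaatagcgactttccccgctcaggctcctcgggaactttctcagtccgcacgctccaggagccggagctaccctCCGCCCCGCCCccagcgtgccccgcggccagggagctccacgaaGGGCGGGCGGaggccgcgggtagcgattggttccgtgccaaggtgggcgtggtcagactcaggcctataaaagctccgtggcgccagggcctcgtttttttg
Prdx1 promoter: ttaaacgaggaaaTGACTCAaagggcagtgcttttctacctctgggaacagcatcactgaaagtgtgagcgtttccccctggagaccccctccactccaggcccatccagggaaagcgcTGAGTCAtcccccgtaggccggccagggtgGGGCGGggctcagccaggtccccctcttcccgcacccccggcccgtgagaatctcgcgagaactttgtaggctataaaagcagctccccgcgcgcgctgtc

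Genes that feed, restore, control or surround these enzymes were examined as 8 lists with 100 tested genes, of which 11 passed on the scanner arrays, against 7.12% of all features. That count was 0 without either control array, 5 without the first AEPS array and 3 without the second, and 50 genes passed in the table, against 33.4% of all features. Of the called genes in either, 2 (Gpx6 and Slc7a11) were not above background on every array and entered the test through the group where they were high, so nothing is read from their calls. The list medians stand beside a median of -0.19 for all features on the scanner arrays. There 8457 of the 25919 features had an unadjusted p below 0.05. Small negative values turned positive with spike-in scaling, as for Taldo1 (0.38), Cyba (0.36), Mafg (0.58), Trnau1ap (0.56), Acox3 (0.14) and Atp5b (0.27).

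Of the 14 related enzymes of the same families and the sestrins, 8 were tested and 2 were called lower on the scanner arrays, Sesn1 and Gpx6. The call of Gpx6 is not read. The list's median log2 change was -0.26. Sesn1, a stress-induced member of the sestrins, fell by 1.47 (adjusted p = 0.0254). Gpx6 was not well above background on any AEPS array and was tested through its control arrays alone. Its mean log2 levels were -6.35 with AEPS and -3.42 in control, and its signal was at least 2.50-fold lower with AEPS. The fit's adjusted p of 0.0260 belongs to the log2 change of -2.93, which rests on AEPS signal below background, and not to this fold. Such a fold sets the brighter mean against, per array, the higher of the probe's own signal and the lowest signal well above background. Srxn1, the sulfiredoxin that repairs over-oxidised peroxiredoxins, stood at 0.14 (adjusted p = 0.563). By the table's values, 2 of the 8 rose and 3 fell, and those outside the naming rule are named after their values were seen. They were Sesn2, another sestrin, at 0.76 (adjusted p = 0.00159), Prdx3, the mitochondrial peroxiredoxin, at 0.37 (adjusted p = 0.0159), and Ccs, the copper chaperone of Sod1, at -0.50 (adjusted p = 0.0181).

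Of 15 thioredoxin and glutathione genes 1 was called higher (Slc7a11) and 1 lower (Txnip) on the scanner arrays, with a list median of 0.21. The call of Slc7a11 is not read. Slc7a11, which imports cystine for glutathione synthesis, was above background on both AEPS arrays and on 1 of 2 control arrays, through the AEPS group of which it was tested. Its mean log2 level was -0.75 on AEPS arrays and -4.05 on control arrays (adjusted p = 0.0312, lost without either control array), a control level that was only partly measured. Txnip, which binds and inhibits thioredoxin, fell by 0.81 (adjusted p = 0.0491). Txn1, thioredoxin itself, stood at 0.08 (adjusted p = 0.764). By the table's values, 7 of 15 rose and 5 fell. Among them, picked after their values were seen, Txnrd1, the cytosolic thioredoxin reductase, rose by 0.73 (adjusted p = 0.00172) and Txnrd2, the mitochondrial one, fell by 0.46 (adjusted p = 0.00492). The 2 subunits of glutamate cysteine ligase, the first enzyme of glutathione synthesis, parted in the table, with catalytic Gclc at -0.62 (adjusted p = 0.00196) and modifier Gclm at 0.35 (adjusted p = 0.0117).

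None of 11 genes for NADPH supply passed on the scanner arrays (1 with an unadjusted p below 0.05), with a list median of -0.16, and the brightest, Taldo1, stood at -0.22 (adjusted p = 0.473). By the table's values, 1 rose and 2 fell, each named after its value was seen. Nadk, which makes NADP, stood at 0.32 (adjusted p = 0.0168), and the pentose phosphate enzymes Pgls and Pgd at -0.65 (adjusted p = 0.00645) and -0.31 (adjusted p = 0.0289).

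Among 13 tested genes of oxidant-producing enzymes 2 rose and 0 fell on the scanner arrays, with a list median of 0.11. Cybb, the catalytic subunit of the phagocyte oxidase that makes superoxide, averaged 1.98 on AEPS arrays and 0.41 on control arrays and rose by 1.57 (adjusted p = 0.0225). Nos2, inducible nitric oxide synthase, averaged 3.67 on AEPS arrays and 1.99 on control arrays and rose by 1.67 (adjusted p = 0.0225). Cyba, the partner of Cybb in the membrane, stood at -0.25 (adjusted p = 0.390). By the table's values, 3 rose and 1 fell, the further ones being Rac1, a small GTPase that activates the oxidase, at 0.27 (adjusted p = 0.0423) and Noxo1, an organizer of a related oxidase, at -0.29 (adjusted p = 0.0247), both named after their values were seen.

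Of 11 tested regulators and targets of the antioxidant response 2 rose and 1 fell on the scanner arrays, with a list median of 0.07. Maff, a small Maf protein, rose by 2.86 (adjusted p = 0.00948), and Nfe2l2, which encodes the transcription factor NRF2, rose by 1.33 (adjusted p = 0.0377). Foxo3, a forkhead factor, fell by 1.25 (adjusted p = 0.0290), and Mafg stood at -0.02 (adjusted p = 0.929). By the table's values, 4 rose and 3 fell. Those outside the naming rule, named after their values were seen, were Hmox1, which encodes heme oxygenase, at 0.91 (adjusted p = 7.7e-04), Mafk at 0.62 (adjusted p = 0.0062), Keap1, which targets NRF2 for breakdown, at -0.52 (adjusted p = 0.00353), and Foxo1 at -0.59 (adjusted p = 0.0163).

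The glutathione peroxidases Gpx1 and Gpx4 contain selenocysteine. None of the 7 genes for making selenoproteins passed on the scanner arrays (1 with an unadjusted p below 0.05), the list median was 0.20, and the brightest, Trnau1ap, stood at -0.05. By the table's values, 2 rose and 0 fell, and both are named after their values were seen. Secisbp2, which binds the selenocysteine insertion element, stood at 0.81 (adjusted p = 7.89e-04) and Sephs2, which makes selenophosphate, at 0.30 (adjusted p = 0.0222).

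Of 19 genes for peroxisomes, where catalase works, 0 rose and 2 fell on the scanner arrays, with a list median of -0.17. Pex10, a ubiquitin ligase of protein import, fell by 1.34 (adjusted p = 0.0406), while Acox3 stood at -0.46 (adjusted p = 0.167). The table fit had 5 higher, among them Pex2, Pex3, Pex7 and Pex11a at 0.28 to 0.73, and 5 lower, among them Pex6, Pex10, Pex19 and Pex26 at -1.32 to -0.26, all but Pex10 named after their values were seen. Of 16 genes for proteins of mitochondria, where Sod2 works, none passed on the scanner arrays (5 with an unadjusted p below 0.05), with a list median of -0.03 and Atp5b at -0.33 (adjusted p = 0.195). The table fit had 4 higher and 3 lower. The higher ones, named after their values were seen, were the chaperones Hspa9 (0.84) and Hspd1 (0.64), Tfam (0.54), which packages mitochondrial DNA, and the citric acid cycle enzyme Fh1 (0.29). Among the lower ones were the protease subunit Clpp (-0.56) and the outer membrane channel Vdac1 (-0.44).

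**Figure D5:**
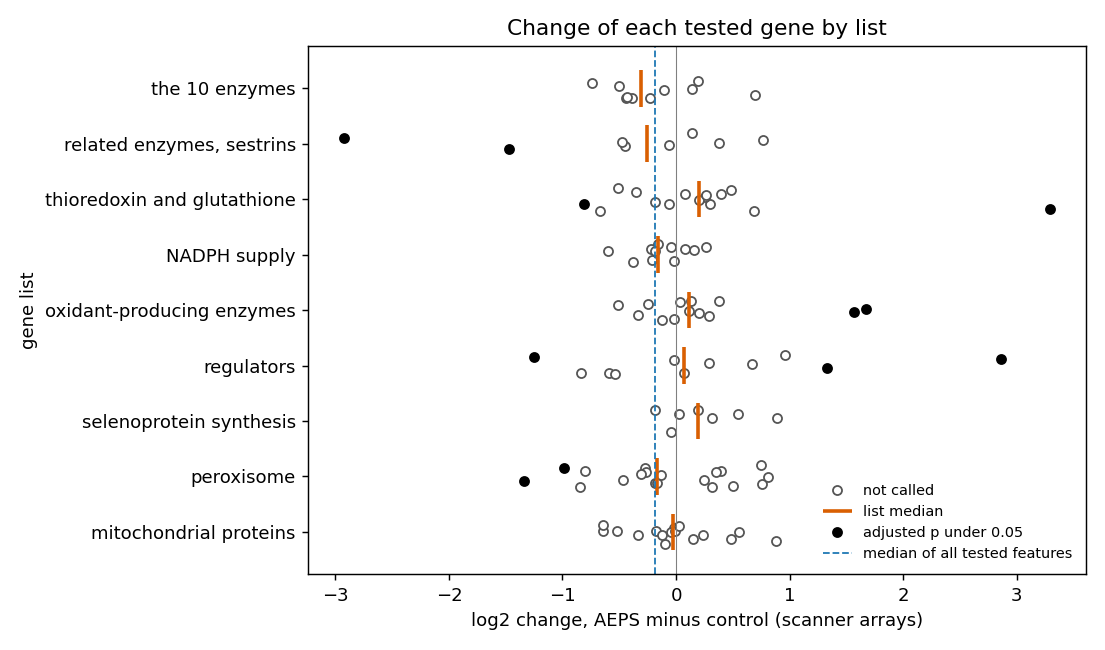
Log2 change, AEPS minus control, of each tested gene on the scanner arrays, by gene list, with list medians (orange) and the median of all tested features, -0.19 (dashed blue). Filled points passed an adjusted p of 0.05, 11 genes in the related lists and none of the 10 enzymes. Filled points of genes above background on every array run from -1.47 for Sesn1 to 2.86 for Maff, and the 2 filled points beyond them, Slc7a11 and Gpx6, were not above background on every array of their lower group.

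The genes whose centred profile over the 6 table columns was nearest by Euclidean distance, among 15049 genes compared, were found for the enzymes with the largest changes. Nearest to Gpx4 were Kyat1 (distance 0.05, table change -0.66), Otub1 (0.07, -0.71) and Ech1 (0.07, -0.69). Nearest to Sod2 were Ammecr1l (distance 0.08, table change 0.75), Sesn2 (0.08, 0.76) and Slc2a1 (0.09, 0.78). Distances are in log2 units over the 6 columns, and Sesn2 is also among the related genes above.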

How the data were processed

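Total RNA of 3 samples per group was converted to cRNA carrying Cy3, per the labels' protocols. Spots were read by Agilent Feature Extraction 10.7.1.1, per the file headers, and the deposited scanner files hold their intensity, background-subtracted and detrended, with flags. The authors' deposited value table is on a log2 scale with a median of 4.72 in each column. Its normalization steps and the array's genome build are not given in the sources used here. Other deposited columns used were flags and annotation.

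Control spots and spots flagged as outliers were left out, and the processed signal was taken to log2 and centred on the 75th percentile of its array. The 30368 probes that were well above background on all arrays of the AEPS or the control group were tested, and a gene was represented by its brightest tested probe. Names came from RefSeq accessions for 26582 probes and from the scanner annotation alone for 4818. The test was limma 3.58.1 in R 4.3.3, Benjamini-Hochberg adjusted over 25919 features (15050 genes with names, 10869 probes without) at 0.05. The calculations were tested on simulated data.

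In the table, deviations of same-numbered samples correlated at 0.55, 0.35 and 0.39 across features, above the bound of 0.1, and slide mates at 0.59. Of the differently numbered samples, AEPS replicate 2 and control replicate 3 also exceeded the bound, at 0.23, and the others correlated negatively. The numbers were therefore taken as pairs, and the replicate block is given beside the fit without it. Alternatives covered background correction, scaling, filters, probes per gene, the table, the block and left-out arrays. The genes named are all 10 enzymes, up to 4 called genes per list and direction, the brightest uncalled gene, Cybb, Nfe2l2 and the 3 nearest profiles. The enzymes, lists and tests were chosen with earlier results of these data known. A few genes of the related lists are counted but not reported by name here.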

Additional observations from a re-analysis of the deposited data

How the results depend on the processing

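The scanner arrays give 2 distinct arrays per group, and no enzyme passed there as first fitted, with no block. The number of enzymes called, 0 on the scanner arrays as first fitted, was 2 with normexp background correction (17.7% of all features called), 1 with quantile normalization (12.1%), 1 with spike-in scaling (12.3%), 4 with the slide as replicate block, 5 in the authors' table, 7 in the table with the replicate block, and 2 with cyclic loess normalization, without the block (11.3%) or with it (29.9%); it ranged from 0 to 4 when arrays or samples were left out. With no filter on dim probes limma called 0 of 48089 features, 7352 of them with an unadjusted p below 0.05. The number of called genes of the related lists, 11 as first fitted, was 28 with normexp, 22 with quantile normalization, 20 with spike-in scaling, 0 with no filter, 34 with the slide block, 50 in the table, 62 in the table with the block, 21 with cyclic loess and 37 with cyclic loess and the block, and 0 to 43 with arrays or samples left out. On the scanner arrays it was 0 without either control array, 5 without the first AEPS array and 3 without the second. The number of all features called was 1845 as first fitted, 7720 with the slide block, 8667 in the table and 12906 in the table with the block, and without 1 array it was 7 to 794. Of the enzymes, 3 passed in the table without control replicate 2 or any 1 of the AEPS samples, and 4 without control replicate 1 or 3, where 21.6% to 28.8% of all features passed. The cause of these differences was not tested.

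Signs changed with spike-in scaling, to 0.22 for Sod1, 0.10 for Prdx2, 0.17 for Prdx5, 0.49 for Prdx6, 0.18 for Gpx1, 0.38 for Gsr, 0.38 for Taldo1, 0.36 for Cyba, 0.58 for Mafg, 0.56 for Trnau1ap, 0.14 for Acox3 and 0.27 for Atp5b. They also changed with normexp (Mafg 0.047, Trnau1ap 0.0395), quantile normalization (Taldo1 0.0393), the mean of a gene's probes (Mafg 0.12), the table with or without the replicate block (Prdx6 0.0367, Taldo1 0.02, Mafg 0.03, Atp5b 0.0267) and cyclic loess with or without the block (Prdx6 0.0082, Mafg 0.0631). With arrays or samples left out, ranges crossed 0 for Cat (-0.0018 to 0.28), Prdx6 (-0.19 to 0.0717), Txn1 (-0.0241 to 0.18), Taldo1 (-0.37 to 0.09), Cyba (-0.40 to 0.02), Mafg (-0.0965 to 0.0783), Trnau1ap (-0.12 to 0.0265) and Atp5b (-0.41 to 0.0733). The Sod2 minus Sod1 shift stayed between 0.93 and 1.09.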
